A study of Mus musculus with 68 samples.

Results

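Hoxa2, Hoxa3, Hoxb1, Hoxb2 and Hoxb3 and the transcripts Hoxaas2 and Hoxb3os were followed through the first and second pharyngeal arches of mouse embryos. They are the anterior Hox genes of the HoxA and HoxB clusters that were measured in this study, together with the antisense transcripts next to them. They were chosen by name, and all 7 were present among the 21948 genes of the expression table. Hoxa2, Hoxaas2, Hoxa3, Hoxb2 and Hoxb3os stood higher in the second arch in each stage and label group, where first arch means were 0.105% to 14.3% of second arch means. In the second arch Hoxa2 and Hoxaas2 rose from E9.0 to E10.5 while Hoxb1, Hoxb2 and Hoxb3os fell, and in embryos labelled Hoxa2-/- Hoxa2 was not lower than in wildtype but higher at the later stages.

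Hox genes encode homeodomain transcription factors that are transcribed in nested domains along the body axis, in an order that follows their order in the cluster. Neural crest cells that enter the first arch, from which the jaws form, lack Hox expression, while those of the second arch express Hoxa2, which directs the formation of second arch skeleton such as the stapes. Hox proteins bind DNA with partners of the TALE class, the Pbx and Meis proteins, and retinoic acid and the hindbrain factor Egr2 are known to regulate the anterior Hox genes.

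The embryos were of the strain CBA/Ca/J x C57BL/10 and were either wildtype or labelled Hoxa2-/-, at E9.0, E9.5, E10.0 or E10.5. Pharyngeal arch 1 (PA1) and pharyngeal arch 2 (PA2) were dissected by hand from the same embryos and sequenced as polyadenylated RNA. Wildtype gave 5, 5, 5 and 3 PA1 libraries and 4, 4, 5 and 3 PA2 libraries at the 4 stages in that order. The label Hoxa2-/- gave 4, 5, 5 and 3 libraries of each arch. No Cre, transgene or treatment is named for any group. The sources used here do not say what the Hoxa2 allele removes, so reads over the gene need not report on the deleted part, and the label is given as deposited.

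The members lie in compact neighbourhoods of the mouse genome (build GRCm38, also called mm10, annotation GENCODE M21). Hoxa2 (ENSMUSG00000014704) occupies chr6:52162417-52164831 on the minus strand. Hoxaas2 (ENSMUSG00000056445), a non-coding transcript, occupies chr6:52165674-52169564 on the plus strand. The genes run away from each other, with 842 bases between them, and share no exon. Hoxaas2 instead overlaps the last part of Hoxa3 (ENSMUSG00000079560, chr6:52169062-52213336, minus strand), with 503 exonic bases in common. On the plus strand of chromosome 11 follow Hoxb3 (ENSMUSG00000048763, chr11:96323326-96347930), Hoxb2 (ENSMUSG00000075588, chr11:96350525-96354012) and Hoxb1 (ENSMUSG00000018973, chr11:96365752-96368256). Hoxb3os (ENSMUSG00000084844, chr11:96343072-96354691) runs against them on the minus strand and spans the whole of Hoxb2. It shares 2250 exonic bases with Hoxb3, which are 52.9% of the exonic bases of Hoxb3, and 953 with Hoxb2, which are 27.3% of those of Hoxb2. The library kits used do not mark strand and the counting rule is not given in the sources used here. Reads of Hoxb3os, Hoxb2 and Hoxb3 in the shared bases therefore cannot be told apart, and the same holds for Hoxaas2 and Hoxa3.

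The promoter windows of Hoxa2 and Hoxb1 are shown because these members moved in opposite directions over time in PA2 while both stood above PA1 at E9.0. RefSeq (GRCm38.p6) gave a window of 250 bases before to 50 bases after the start for 4 of the 7 members. Both strands were searched for TGATNNAT, a Pbx-Hox motif, and TGACAG, a Meis motif, which share no letters where they occur here. Capitals mark the matches, and positions are counted from the annotated start to the first printed base of the match.
Hoxa2 (chr6:52164782-52165081, minus strand): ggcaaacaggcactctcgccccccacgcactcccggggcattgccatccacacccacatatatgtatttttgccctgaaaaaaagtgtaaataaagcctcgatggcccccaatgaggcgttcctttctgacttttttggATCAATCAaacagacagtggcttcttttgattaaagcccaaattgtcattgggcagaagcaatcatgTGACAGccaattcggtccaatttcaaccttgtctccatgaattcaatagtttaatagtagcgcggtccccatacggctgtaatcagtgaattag
Hoxb1 (chr11:96365508-96365807, plus strand): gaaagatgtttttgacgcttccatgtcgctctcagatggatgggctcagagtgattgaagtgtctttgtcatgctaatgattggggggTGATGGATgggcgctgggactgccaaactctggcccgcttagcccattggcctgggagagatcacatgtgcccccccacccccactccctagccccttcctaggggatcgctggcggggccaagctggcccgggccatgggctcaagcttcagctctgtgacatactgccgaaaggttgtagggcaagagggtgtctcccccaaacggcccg

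The Hoxa2 window held 1 Pbx-Hox match at position -111, which reads TGATTGAT on the opposite strand, and 1 Meis match at position -44. The Hoxb1 window held 1 Pbx-Hox match at position -162. Hoxa3 had 1 Meis match at position -13, on the opposite strand, and Hoxb3os had neither. Of 32851 promoter windows of this length, 8.85% held the Pbx-Hox letters, 19.2% the Meis letters and 1.85% both, as the window of Hoxa2 did. A match describes the letters and not a bound site.

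Values are read counts scaled to library size (CPM) as deposited, in libraries of 8912251 to 20619153 reads, where 1 read is worth 0.0467 to 0.109 CPM. Read counts of PCR-amplified cDNA are not independent molecules, and the labels do not say whether replicate embryos came from separate litters, so p-values measure the spread between these libraries. Differences were tested with limma on log2(CPM + 1) over 16 groups, and a gene is called past an adjusted p of 0.05 over 18428 genes. This scale understates the change of low genes. The libraries were divided in a way the groups do not explain. Ski, a transcriptional corepressor, stood at 26.3 to 108 CPM in the 24 wildtype libraries of the stages other than E10.0. It stood at 9.52 to 15.5 CPM in the 10 wildtype libraries of E10.0 and at 9.28 to 22.8 CPM in the 34 libraries labelled Hoxa2-/-. Irf2bp2 divided the libraries in the same way, at 26.6 to 82.6, 7.36 to 13.5 and 7.62 to 19.1 CPM. Except at E10.0, this division and the label cannot be told apart, and E10.0 is the stage at which both labels lie on the same side. Wildtype E10.0 was therefore not set against other wildtype stages.

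The first comparison was PA2 against PA1, which asks how each member marks the second arch. Hoxa2 stood between 20.2 and 63.3 CPM in the 16 wildtype PA2 libraries and between 0 and 0.926 CPM in the 18 wildtype PA1 libraries. In the groups labelled Hoxa2-/- it stood at 16.8 to 147 CPM in PA2 and at 0 to 0.628 CPM in PA1. Each of the 33 embryos with both arches had more Hoxa2 in PA2, and mean PA1 levels were 0.285% to 0.890% of those in PA2. Over the 4 stages in order, the wildtype log2 difference was 4.39 (SE 0.17), 5.05 (SE 0.17), 5.38 (SE 0.16) and 5.33 (SE 0.20). It was 4.70, 5.47, 6.17 and 6.60 under the label Hoxa2-/-, and the adjusted p-values were at most 2.8e-29 in wildtype and 1.1e-29 under the label.

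Hoxaas2, which is transcribed away from Hoxa2, showed a like pattern. It stood at 3.09 to 25.3 CPM in wildtype PA2 and at 4.86 to 40.6 CPM in PA2 labelled Hoxa2-/-. In PA1 it did not exceed 0.436 CPM, or 8 reads, in any library. PA1 means were 0.105% to 1.15% of PA2 means, and the wildtype log2 difference went from 2.41 (SE 0.15) at E9.0 to 4.20 (0.18) at E10.5. Hoxa3, the gene best known from the third arch and its glands, was low in both arches. It stood at 0.861 to 1.84 CPM in wildtype PA2 against at most 0.235 CPM in wildtype PA1, a log2 difference of 1.03 to 1.23 over the stages. The arch groups of Hoxa2, Hoxaas2 and Hoxa3 did not overlap at any stage under either label. The share of all genes without overlap was not counted, here or in the comparisons below. Lack of overlap is therefore given as a description.

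Hoxb2, which is known for its expression in the hindbrain and in second arch crest, stood at 1.81 to 6.07 CPM in wildtype PA2 and at 0.052 to 0.882 CPM in wildtype PA1. Its wildtype log2 difference was 2.23, 2.11, 2.07 and 1.72 over the 4 stages. Hoxb3os stood at 0.983 to 2.87 CPM in wildtype PA2 and at most at 0.217 CPM in wildtype PA1, with log2 differences of 1.48, 1.41, 1.29 and 1.16. Under the label Hoxa2-/- the differences of Hoxb3os were 1.71, 1.02, 0.67 and 0.52, and the last was not called (adjusted p 0.055 by limma), although its groups did not overlap. With edgeR on the recovered reads, whose fold is not compressed by the pseudocount, that last difference was called, with a log2 difference of 3.93 (adjusted p 0.00178).

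Hoxb1, a gene of rhombomere 4 and of the crest that leaves it for the second arch, divided the arches at the early stages. In wildtype PA2 at E9.0 it stood at 5.97, 1.87, 7.67 and 2.65 CPM, against 0.147 to 1.31 CPM in PA1. The wildtype log2 difference was 1.87 (SE 0.26, adjusted p 1.5e-07) at E9.0 and 1.06 (SE 0.26, adjusted p 0.0017) at E9.5. By E10.0 it was 0.29 (95% interval -0.19 to 0.78) and at E10.5 0.15 (-0.48 to 0.77), with all wildtype PA2 libraries of those stages at 0.47 CPM or less. Under the label Hoxa2-/- it was called at E9.0 (2.40) but not at E9.5 (0.34, adjusted p 0.43), where PA2 replicate 5 stood at 2.57 CPM and PA1 replicate 5 at 1.43 CPM. Hoxb3, which is transcribed in the caudal hindbrain, reached at most 0.937 CPM and did not pass the filter of 1 CPM in at least 3 libraries. Without that filter it was called higher in PA2 at E9.0 and E9.5 in wildtype (log2 differences 0.64 and 0.39, with 15.9% and 21.7% of all genes called) and at E9.0 under the label (0.55, with 21% called).

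Of the 6 members that passed the filter, 6, 6, 5 and 5 were called higher in PA2 over the wildtype stages, or 22 of 24 tests, and 20 of 24 under the label Hoxa2-/-. No PA1 library exceeded 1 CPM for Hoxa2, Hoxaas2, Hoxa3 or Hoxb3os, and 1 did for Hoxb2. These members passed the filter only through PA2, where they are high. The counts are therefore partly fixed by the filter and serve as a description. Over all genes tested the share called higher in PA2 was 10.2%, 12.7%, 4.51% and 0.868% in wildtype and 12.1%, 6.12%, 3.13% and 0.982% under the label. Markers of other tissues differed between the arches too. At E9.0 in wildtype the summed CPM of 9 arch mesenchyme markers was 367 to 445 in PA2 and 588 to 683 in PA1. Pharyngeal endoderm markers (6 genes) summed to 96.1 to 151 CPM in PA2 and 29.2 to 56.4 in PA1, and heart muscle markers (5 of 6 in the table) to 28.9 to 1067 and 12.2 to 33.1. Of the 9 hindbrain neural tube markers, 5 were in the table, and their sums at E9.0 were 5.08 to 8.44 CPM in PA2 and 6.14 to 9.43 in PA1. The caudal Hox markers in the table (4 of 8) summed to at most 0.978 CPM in wildtype PA2 at E9.0. The part of these tissues in the levels of Hoxa2 or any other member was not tested, and in bulk tissue fewer cells of a type and less RNA per cell cannot be told apart.

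**Figure D1:**
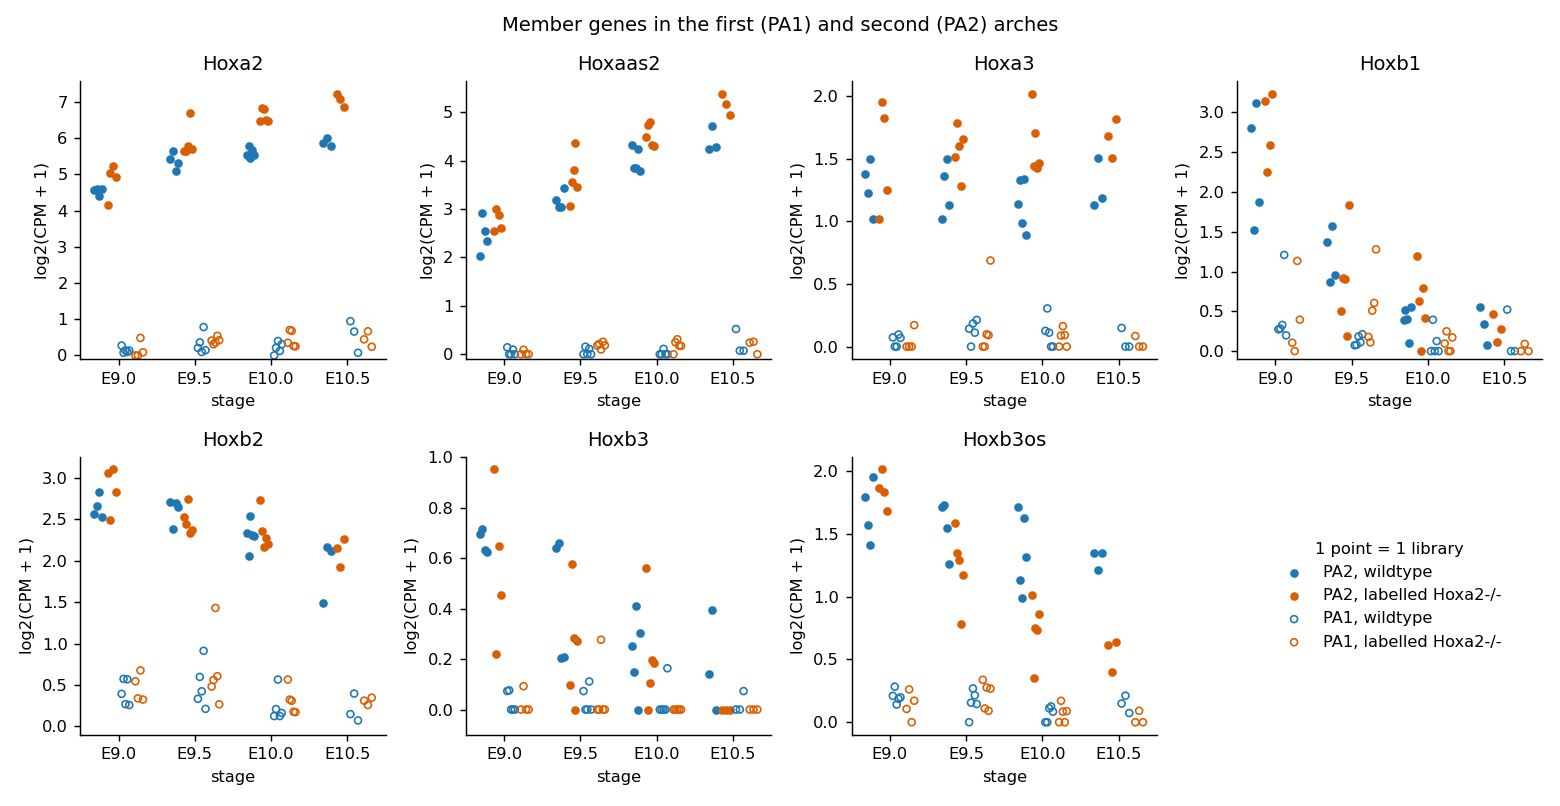
Each panel plots log2(CPM + 1) of 1 member (vertical axis) by stage (horizontal axis) in all 68 libraries, with PA2 filled, PA1 open, wildtype blue and the label Hoxa2-/- orange. PA2 points of Hoxa2, Hoxaas2, Hoxa3, Hoxb2 and Hoxb3os lie above the PA1 points of the same stage and label, and by E10.5 the wildtype PA2 points of Hoxb1 and Hoxb3 overlap the PA1 points.

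The second comparison was the label Hoxa2-/- against wildtype. Hoxa2, the gene the label names, was read in every library first. At E9.0 wildtype PA2 stood at 22.9, 23.0, 20.2 and 23.1 CPM, and PA2 labelled Hoxa2-/- at 16.8, 32.0, 36.3 and 29.6 CPM. At E9.5 wildtype stood at 42.3, 49.2, 33 and 38.5 CPM, and the label at 48.9, 48.6, 53.5, 102 and 50.6 CPM. The groups overlapped at both of these stages. At E10.0 wildtype stood at 45.0, 53.7, 42.7, 50.4 and 45.5 CPM, and the label at 88.2, 113, 111, 88.8 and 87.2 CPM. At E10.5 wildtype stood at 57.2, 63.3 and 54.5 CPM, and the label at 147, 134 and 116 CPM. The labelled libraries exceeded all wildtype libraries at E10.0 and E10.5. The ratio of means was 1.29, 1.49, 2.06 and 2.27 over the stages.

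The log2 difference of Hoxa2 was called at E10.0 (1.02, SE 0.16, adjusted p 0.00011) and also at E10.5 (1.16, SE 0.20, adjusted p 6.9e-05). It was 0.30 at E9.0 (adjusted p 0.27) and 0.51 at E9.5 (adjusted p 0.062). At E10.0, 0.0814% of all genes were called, 15 in all, and Hoxa2 was 1 of 3 that were higher. At E10.5 the share was 10.3%, at E9.0 14% and at E9.5 4.48%. With a pseudocount of 0.25 in place of 1 the E10.0 difference was 1.03 and its adjusted p 0.206. Without replicate 1 of the label at E9.0, the library of 16.8 CPM, the E9.0 difference was 0.53 (adjusted p 0.0338), and without replicate 4 of the label at E9.5, the library of 102 CPM, the E9.5 difference was 0.31 (adjusted p 0.278). Those libraries had, with 360 and 722 CPM, the lowest and the highest sum of arch mesenchyme markers in their groups.

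Hoxaas2 was higher under the label at E10.5, where wildtype PA2 stood at 18.1, 25.3 and 18.6 CPM and the label at 40.6, 34.8 and 29.9 CPM. The log2 difference was 0.74 (SE 0.18, adjusted p 0.0047), and the groups did not overlap. It was not called with edgeR (0.76, adjusted p 0.0669) or a pseudocount of 0.25 (0.77, adjusted p 0.0552). At E10.0 wildtype stood at 19.0, 13.4, 13.4, 17.9 and 12.8 CPM and the label at 21.6, 25.8, 26.7, 19.1 and 18.7 CPM, which overlapped by 1 library on each side (0.52, adjusted p 0.24, and 0.0402 with a pseudocount of 5). At E9.5 the difference of Hoxaas2 was 0.47 (adjusted p 0.056), and it was called without wildtype replicate 5 (0.56, adjusted p 0.0381), without replicate 1 of the label (0.62, adjusted p 0.00935) and without a wildtype E9.0 library high in red cell genes (adjusted p 0.0403). Without replicate 4 of the label, the library of 102 CPM of Hoxa2, it was 0.29 (adjusted p 0.257). Hoxa3 at E10.0 stood at 0.861 to 1.53 CPM in wildtype and at 1.69 to 3.06 CPM under the label, without overlap, yet its difference of 0.47 was not called (adjusted p 0.24). The 503 bases shared by Hoxaas2 and Hoxa3 bear on both values.

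Hoxb3os went the other way. At E10.0 wildtype PA2 stood at 2.28, 1.2, 0.983, 2.08 and 1.49 CPM and the label at 1.02, 0.275, 0.680, 0.662 and 0.814 CPM, overlapping by 1 library on each side. At E10.5 wildtype stood at 1.55, 1.32 and 1.55 CPM and the label at 0.534, 0.320 and 0.561 CPM, or 4 to 8 reads, without overlap. The log2 differences were -0.61 (SE 0.11, adjusted p 0.0045) and -0.75 (SE 0.15, adjusted p 0.00037), and at the earlier stages they were 0.17 and -0.33 and not called. The E9.5 value was called without wildtype replicate 5 (-0.43, adjusted p 0.0437) or replicate 1 of the label (-0.42, adjusted p 0.0432), and it was -0.22 (adjusted p 0.349) without replicate 4 of the label. At E10.0 the call was lost with edgeR (adjusted p 0.142), in a fit of the compared groups alone (0.327) and without wildtype replicate 1 (-0.52, adjusted p 0.0566). Hoxb2, whose exons Hoxb3os partly overlaps, was not called at any stage, with intervals at E10.5 of -0.19 to 0.56. Hoxb1 was not called either, and its interval at E10.5 was -0.66 to 0.59. Hoxb3 at E10.5 stood at 0.103, 0.316 and 0 CPM in wildtype and at 0 in all 3 libraries of the label, which allows up to 0.229, 0.240 and 0.210 CPM at 3 reads each.

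In all, 5 of 24 tests of members were called between the labels in PA2, 2 at E10.0 and 3 at E10.5. In PA1, where the members were near the floor of 3 reads, none of 24 was called by limma or by edgeR, and 0 and 3 of the 24 had an unadjusted p under 0.05. The share of all genes called in PA1 was 2.08%, 23.6%, 0% and 3.05%. The difference between the label effects of PA2 and PA1 was tested directly. It was 1.27 (SE 0.29, adjusted p 0.092) for Hoxa2 at E10.5 and 0.78 (SE 0.22, adjusted p 1) at E10.0, and none of 24 member tests was called by limma or edgeR, where 8 and 3 had an unadjusted p under 0.05. Of all genes, 0%, 0.0109%, 0.0163% and 0.038% were called over the stages. With a pseudocount of 5 the values of Hoxa2 at E10.0 (0.91, adjusted p 0.00305) and E10.5 (1.15, adjusted p 0.00253) were called. Mean PA1 Hoxa2 at E10.0 was 0.162 CPM in wildtype and 0.378 CPM under the label. A pseudocount of 5 flattens such low values, so these calls mostly repeat the PA2 difference and do not compare the arches. With edgeR the E10.0 value of Hoxa2 turned to -0.10 (adjusted p 1), and that of Hoxb3os at E10.5 to 0.23 (adjusted p 1). With the embryo as a replicate block, the E10.5 value of 1.27 had an adjusted p of 0.00552. Without wildtype PA1 replicate 3 it was 1.52 (adjusted p 0.0113).

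**Figure D2:**
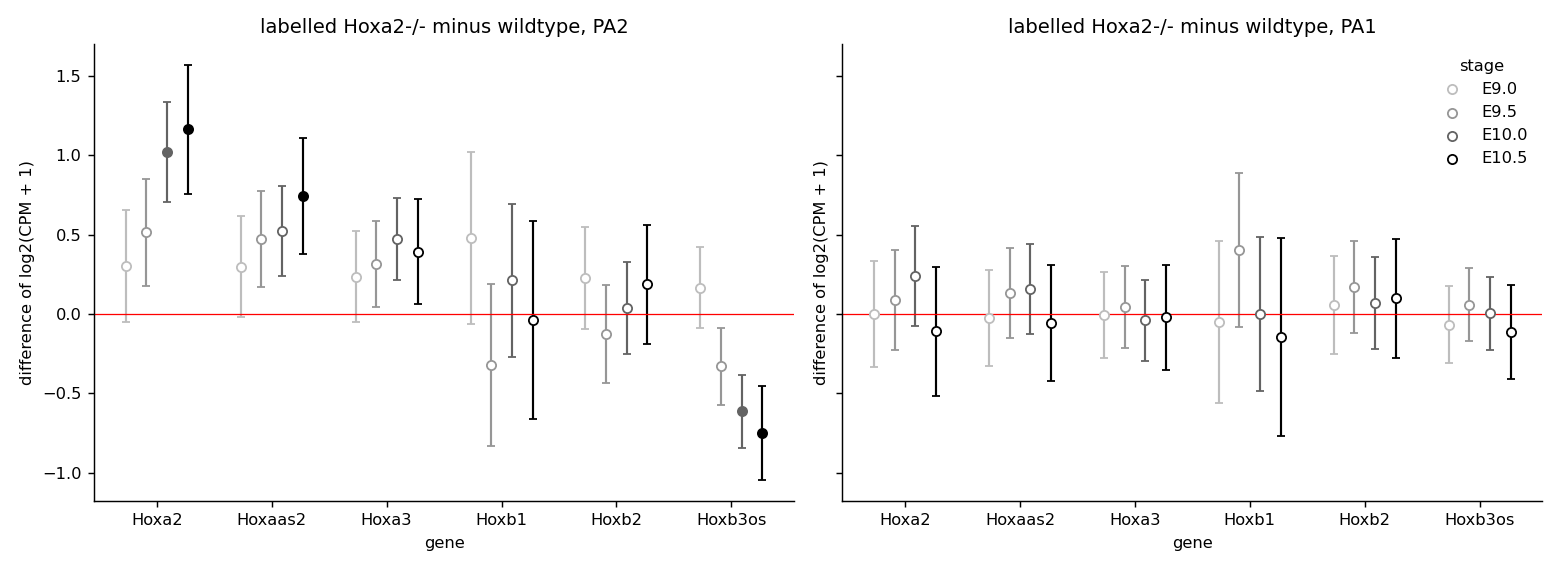
Differences of log2(CPM + 1), label Hoxa2-/- minus wildtype, are plotted (vertical axis) for 6 members (horizontal axis) at the 4 stages, with 95% intervals and filled points for adjusted p under 0.05, in PA2 (left) and PA1 (right). Filled points are Hoxa2 at E10.0 and E10.5, Hoxaas2 at E10.5 and Hoxb3os at E10.0 and E10.5, all in PA2.

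Other markers moved with the label. At E10.5 the markers of PA1 identity (5 of 5 in the table: Pitx1, Lhx6, Lhx8, Barx1 and Nkx3-2) summed to 62.2 to 80.5 CPM in wildtype PA2 and 209 to 214 CPM under the label. At E10.0 the sums were 109 to 190 and 180 to 239 CPM. The arch mesenchyme sum at E10.0 was 521 to 644 CPM in wildtype PA2 and 606 to 758 under the label, and at E10.5 692 to 800 and 751 to 838. Relative to that sum, Hoxa2 was higher under the label at E10.0 by 0.80 on the log2 scale (exact two-sided permutation test of 5 against 5 libraries, p 0.00794, the smallest this design allows, adjusted p 0.0317 over 4 stages). At E10.5 it was higher by 1.08, where the exact test of 3 against 3 cannot go below a p of 0.1. At E9.0 and E9.5 the values were 0.14 (adjusted p 0.4) and 0.43 (adjusted p 0.0952) by the same exact test. This measure was chosen after seeing the data. The part of tissue makeup in the label difference of Hoxa2 was not tested.

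**Figure D3:**
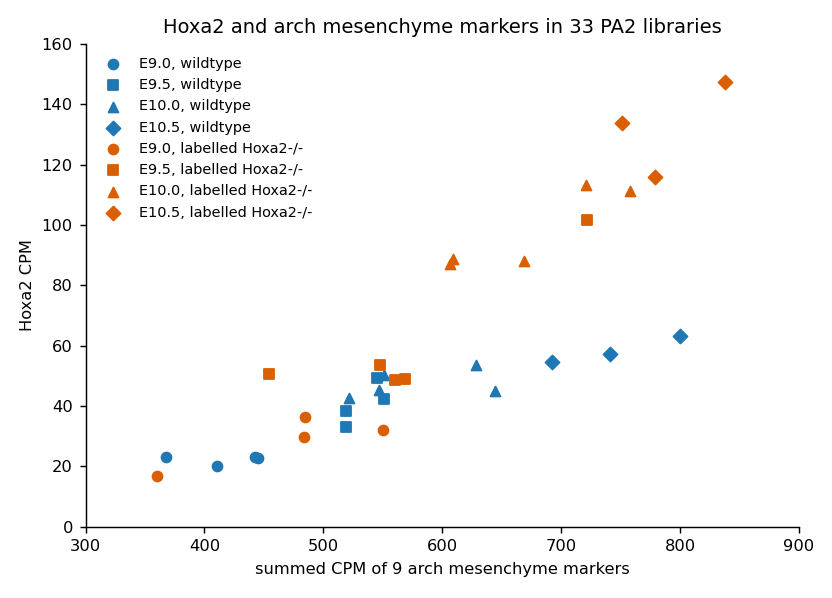
Hoxa2 CPM (vertical axis) is plotted against the summed CPM of 9 arch mesenchyme markers (horizontal axis) in the 33 PA2 libraries, with wildtype blue, the label Hoxa2-/- orange and a symbol for each stage. At E10.0 and E10.5 the labelled libraries lie above the wildtype libraries in Hoxa2. Their marker sums also reach higher, at 606 to 758 against 521 to 644 CPM at E10.0 and 751 to 838 against 692 to 800 CPM at E10.5.

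The third comparison was between stages within PA2. Between E9.0 and E10.5 Hoxa2 rose by 1.35 on the log2 scale in wildtype (SE 0.19, adjusted p 7.3e-08) and by 2.21 under the label (SE 0.19, adjusted p 2.2e-13), and the groups did not overlap. Hoxaas2 rose by 1.96 (SE 0.17) and by 2.41 (SE 0.17). It stood at 3.09 to 6.52 CPM at E9.0 and at 18.1 to 25.3 CPM at E10.5 in wildtype. Hoxb1 fell by 2.00 (SE 0.29, adjusted p 1.4e-07) in wildtype and by 2.52 (SE 0.29, adjusted p 6.6e-10) under the label, from 3.78 to 8.40 CPM at E9.0 to 0.080 to 0.381 CPM at E10.5 in the latter. Hoxb2 fell by 0.72 and 0.76, from 4.76 to 6.07 CPM to 1.81 to 3.48 CPM in wildtype. Hoxa3 did not change measurably, with intervals of -0.31 to 0.31 in wildtype and -0.15 to 0.47 under the label.

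Hoxb3os fell by 1.30 (SE 0.14, adjusted p 7.7e-11) under the label, from 2.22 to 3.04 CPM to 0.320 to 0.561 CPM. In wildtype it fell by 0.38 (SE 0.14, adjusted p 0.026), from 1.66 to 2.87 CPM to 1.32 to 1.55 CPM, and that call was lost with edgeR (adjusted p 0.126), with a pseudocount of 0.25, in a fit of the compared groups alone and without wildtype E9.0 replicate 1, E9.0 replicate 5 or E10.5 replicate 2. The difference between these changes was itself called, at -0.92 (SE 0.20, adjusted p 0.011), with 0.591% of all genes called. It was not called with edgeR (-1.83, adjusted p 0.0942), in a fit of the compared groups alone (adjusted p 0.236) or without replicate 2 of the label at E10.5 (adjusted p 0.0632). For Hoxa2 the same difference was 0.86 (SE 0.27, adjusted p 0.13). Since wildtype E9.0 and E10.5 lie on the other side of the library division from the label, that division cannot be told apart from the label here.

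Of the 6 members, 5 were called between E9.0 and E10.5 in wildtype PA2 and 5 under the label, at shares of 36.9% and 30.9% of all genes called. Without the filter Hoxb3 fell by 0.49 and 0.57, with 32.5% and 26.8% of all genes called. In PA1 none of 12 member tests was called by limma, 1 having an unadjusted p under 0.05, while 42.5% of all genes in wildtype and 31.2% under the label were called. edgeR called 2 of the 12, both in wildtype, Hoxa2 (2.15, adjusted p 0.00432) and Hoxaas2 (2.17, adjusted p 0.0289), where Hoxa2 had 1 to 4 reads per library at E9.0 and 1 to 17 at E10.5. Between neighbouring stages in PA2, Hoxa2 rose from E9.0 to E9.5 by 0.83 in wildtype and by 1.04 under the label (6.68% and 16.9% of all genes called). Under the label it rose from E9.5 to E10.0 by 0.73 (4.57% called), and from E10.0 to E10.5 the difference of 0.44 was not called (adjusted p 0.42, 0.239% called). Hoxb1 fell by 1.14 and 1.93 between E9.0 and E9.5. In wildtype from E9.5 to E10.5, with 34.3% of all genes called, Hoxa2 rose by 0.52 and Hoxaas2 by 1.25, while Hoxb1 fell by 0.87 and Hoxb2 by 0.68. In that last comparison Hoxa2 lost its call with edgeR (adjusted p 0.0831) and without E9.5 replicate 3 (0.43, adjusted p 0.109), E9.5 replicate 5 (0.50, adjusted p 0.0576), E10.5 replicate 1 (0.53, adjusted p 0.0619) or E10.5 replicate 2 (0.46, adjusted p 0.108). Hoxb1 lost its call without E9.5 replicate 3 (-0.74, adjusted p 0.0653) or E10.5 replicate 3 (-0.75, adjusted p 0.0824), and Hoxb2 without E10.5 replicate 1 (-0.47, adjusted p 0.0602). The wildtype fall of Hoxb1 to E9.5 was lost with edgeR (-1.74, adjusted p 0.0538) and without E9.0 replicate 4 (-0.87, adjusted p 0.061). With a pseudocount of 0.25 calls were lost for Hoxa2 from E9.0 to E9.5 in wildtype (0.85, adjusted p 0.0696), from E9.5 to E10.0 under the label (0.74, adjusted p 0.101) and from E9.5 to E10.5 in wildtype (0.53, adjusted p 0.208). The same held for Hoxb1 from E9.0 to E9.5 in wildtype (-1.46, adjusted p 0.0626), and with a pseudocount of 5 its wildtype fall from E9.5 to E10.5 was -0.26 (adjusted p 0.0725). In fits of the compared groups alone the wildtype fall of Hoxb1 from E9.0 to E9.5 was not called (adjusted p 0.0921), and no rise or fall from E9.0 to E9.5 or from E9.5 to E10.0 under the label was called, the adjusted p of Hoxa2 being 0.167 and 0.0732.

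The makeup of PA2 changed with stage as well. In wildtype, heart muscle markers summed to 28.9 to 1067 CPM at E9.0 and 3.16 to 6.69 at E10.5, pharyngeal endoderm markers to 96.1 to 151 and 47.1 to 49.4, and hindbrain markers to 5.08 to 8.44 and 1.14 to 1.95. Arch mesenchyme markers went from 367 to 445 CPM up to 692 to 800. The wildtype E9.0 library with the lowest heart sum, replicate 2 at 28.9 CPM, had the lowest Hoxb1 of its group at 1.87 CPM. Replicate 5, with a heart sum of 986 CPM, had the next lowest Hoxb1. Hindbrain markers in replicates 1, 2, 4 and 5 of that group summed to 6.44, 5.08, 8.44 and 7.79 CPM. Replicate 2 also held 74780 CPM of red cell genes against a group median of 5208. Leaving it out changed no call of Hoxa2, Hoxaas2, Hoxb1, Hoxb2 or Hoxb3os between E9.0 and E10.5. The part of the changing makeup in these stage differences was not tested.

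**Figure D4:**
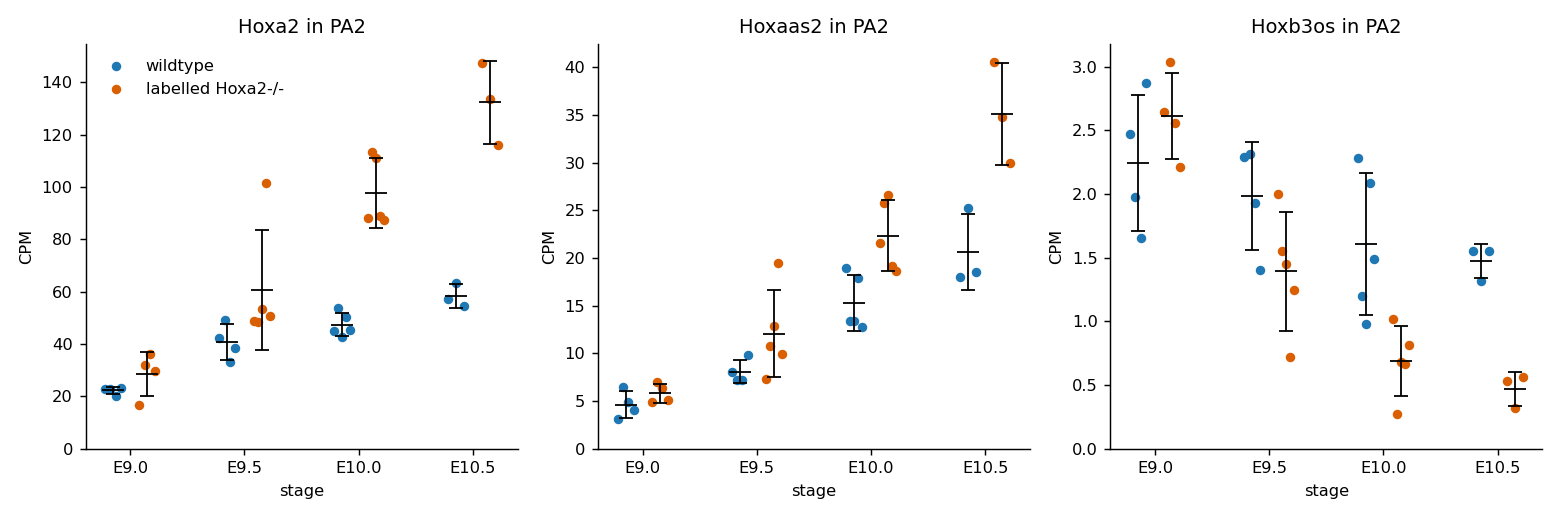
CPM of Hoxa2, Hoxaas2 and Hoxb3os in PA2 (vertical axes, from 0) is plotted by stage (horizontal axis), with 1 point per library, wildtype blue, the label Hoxa2-/- orange, and black bars for the mean and 1 SD. Hoxa2 and Hoxaas2 are highest at E10.5 under the label, where Hoxb3os is lowest.

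Hoxaas2 was then read against Hoxa2 within each PA2 library. Over the stages in order, its CPM in wildtype was 20.9% ± 6.62 (SD, n = 4), 20.2% ± 4.59 (n = 4), 32.4% ± 6.73 (n = 5) and 35.2% ± 4.26 (n = 3) of that of Hoxa2. Under the label it was 21.3% ± 5.50 (n = 4), 20% ± 3.44 (n = 5), 22.8% ± 1.41 (n = 5) and 26.4% ± 0.929 (n = 3). At E10.0 the 5 wildtype libraries lay at 24.9% to 42.2% and the 5 labelled libraries at 21.4% to 24.5%, without overlap. The log2 ratio was lower under the label by 0.50 at E10.0 in an exact two-sided permutation test (difference -0.50, p 0.00794, the smallest possible, adjusted p 0.0317 over 4 stages). Without any 1 of the 10 libraries the adjusted p was 0.0635, the smallest that 4 against 5 can give, since the two-sided test doubles the one-sided p. At E10.5 the difference was -0.42, again without overlap, where the smallest exact p of 3 against 3 libraries is 0.1 (adjusted p 0.2). At E9.0 and E9.5 it was close to 0, at -0.0014 and -0.042 (exact adjusted p 1 for both). Hoxa2 and Hoxaas2 were thus both higher under the label at E10.5, Hoxa2 by 2.27 times and Hoxaas2 by 1.70 times.

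**Figure D5:**
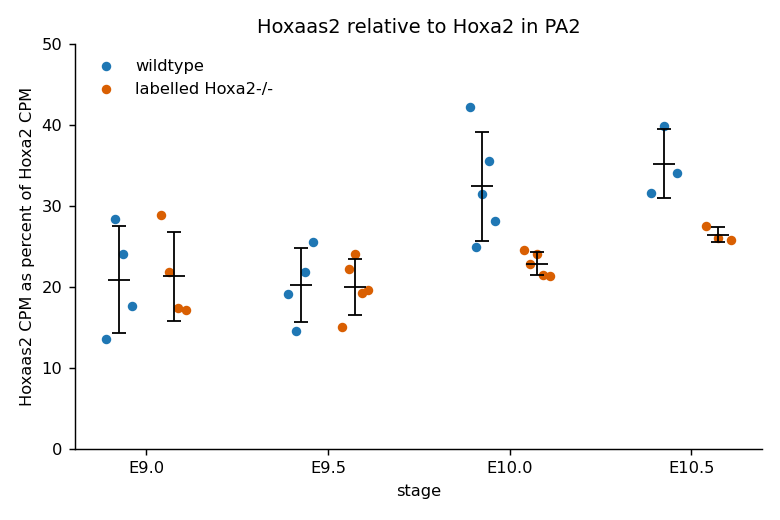
Hoxaas2 CPM as a percent of Hoxa2 CPM (vertical axis, from 0) is plotted by stage (horizontal axis) in each PA2 library, with wildtype blue, the label Hoxa2-/- orange, and black bars for the mean and 1 SD. At E10.0 the labelled libraries lie at 21.4% to 24.5% and the wildtype libraries at 24.9% to 42.2%.

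Within groups, libraries with more Hoxa2 tended to have more Hoxaas2. After removing group means over the 33 PA2 libraries, Pearson's r was 0.59 (permutation p 0.00199, adjusted p 0.0119 over 6 members) and Spearman's rho 0.53 (permutation p 0.0026, adjusted p 0.0156). Without the 2 libraries farthest from the median of Hoxa2 (label Hoxa2-/-, E9.0 replicate 1 and E9.5 replicate 4) r was 0.36 (permutation p 0.0431, adjusted p 0.178). The relation was thus weaker but still positive, and its call depends on those libraries. For Hoxa3, Hoxb1, Hoxb2, Hoxb3 and Hoxb3os r was 0.13, -0.47, -0.34, -0.38 and -0.30, and the smallest adjusted permutation p was 0.0927, for Hoxb1. Hoxa2 also varied within groups with the arch mesenchyme sum, at r 0.76 (permutation p 0.00054, adjusted p 0.00378 over 7 members) and rho 0.67 (permutation p 0.00024, adjusted p 0.00168). Without the same 2 libraries this r was 0.43 (permutation p 0.0192, adjusted p 0.134), so its call too depends on them. That second relation was examined after seeing the data.

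Levels were compared between members per kilobase of exon. Hoxa2 was the highest in each PA2 group, from 12.6 ± 0.789 CPM per kilobase (SD, n = 4) in wildtype at E9.0 to 32.9 ± 2.55 (n = 3) at E10.5. At E9.0 Hoxb1 (1.96 ± 1.18), Hoxb2 (1.51 ± 0.169) and Hoxaas2 (1.38 ± 0.432) followed, with overlapping ranges, and then Hoxb3os (0.534 ± 0.127), Hoxa3 (0.240 ± 0.0568) and Hoxb3 (0.138 ± 0.0116), each without overlap with the next. At E10.5 in wildtype the order was Hoxa2, Hoxaas2 (6.14 ± 1.2), Hoxb2 (0.823 ± 0.264), Hoxb3os (0.351 ± 0.0323), Hoxa3 (0.239 ± 0.0591), Hoxb1 (0.113 ± 0.0883) and Hoxb3 (0.0329 ± 0.0379), where the last 3 overlapped with their neighbours. Hoxb1 thus went from the second place at E9.0 to the sixth at E10.5. Under the label at E10.5 Hoxa3 (0.364 ± 0.0569) lay above Hoxb3os (0.112 ± 0.0314) without overlap, the opposite of their order in wildtype.

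By the correlation of log2(CPM + 1) over the 33 PA2 libraries, the genes most like Hoxa2 among 11347 compared were Dlx1 (r 0.90), Csn3 (0.89), Crym (0.88), Fli1 (0.88) and Slc25a12 (0.87). Dlx1 is a homeobox gene of arch mesenchyme and belongs to the marker sum used above. Over all 68 libraries they included Htra3 (0.94), Spock1 (0.91), Hspa2 (0.91) and Rarres1 (0.90). For Hoxb2 they were Slc7a3 (0.84), Pim3 (0.84), Fbln7 (0.83), Slc9a3r1 (0.83) and Tubb4a (0.83) over PA2, and Klhl14 (0.94), Proser2 (0.93), Fgf15 (0.93), Ckb (0.93) and Slc35f3 (0.92) over all libraries. The libraries share stage, arch and makeup, so these values are descriptions.

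The other Hox genes and Hox transcripts of the table numbered 20, and 8 passed the filter. Of these, 1, 1, 2 and 2 were higher in wildtype PA2 over the stages and none was lower. The shares of all genes were 10.2%, 12.7%, 4.51% and 0.868% higher and 8.53%, 13.7%, 1.43% and 0.651% lower. The median log2 difference of the 8 genes was -0.12 at E9.0 and 0.02 at E10.5, against -0.01 for all genes at both. Hoxd1 was higher by 0.65 at E10.0 and 1.82 at E10.5, where it stood at 2.33 to 3.16 CPM in wildtype PA2 and at most at 0.158 CPM in PA1. Under the label Hoxd1 at E10.5 stood at 0.480 to 2.97 CPM in PA2 and was called lower by limma (-0.65, adjusted p 0.0381), although the groups overlapped. In PA2 at E9.0 Hoxc8 was called between the labels, at 0.82 (adjusted p 0.000336), with 0.0515 to 0.11 CPM in wildtype and 0.0852 to 1.89 CPM under the label. Replicate 4 of that labelled group had a sum of caudal Hox markers of 8.31 CPM against at most 0.739 in its other libraries.

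Among the 9 TALE genes, whose products partner Hox proteins on DNA, 3, 4, 3 and 2 were higher and 1, 0, 0 and 0 lower in wildtype PA2 over the stages (median 0.33, 0.38, 0.13 and 0.16). The shares of all genes were 10.2%, 12.7%, 4.51% and 0.868% higher and 8.53%, 13.7%, 1.43% and 0.651% lower. Meis1 was higher at each stage, by 1.91, 1.89, 1.39 and 1.84, and Meis2 from E9.5 onward, by 0.39, 0.62 and 1.06. Under the label, Meis2 was lower in PA2 at E9.5 by 0.28, at E10.0 by 0.47 (log2 difference -0.47, SE 0.06, adjusted p 6.28e-07) and at E10.5 by 0.66. At E10.0 it stood at 147 to 188 CPM in wildtype PA2 and at 107 to 123 CPM under the label, without overlap. Over the 9 genes, 0, 0, 0 and 2 were higher and 0, 2, 1 and 3 lower under the label at the 4 stages, with medians of -0.10, -0.01, -0.01 and 0.02. Between the labels in PA2, 14%, 4.48%, 0.0814% and 10.3% of all genes were called in either direction. At E10.5 the others called included Meis1 (-0.88), Pknox2 (0.89) and Pbx2 (0.82).

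Of 20 genes known to regulate anterior Hox expression, 19 were tested. In wildtype PA2 2, 4, 1 and 0 were higher and 7, 5, 1 and 2 lower, with medians of -0.11, -0.01, -0.01 and 0.06. Of all genes 10.2%, 12.7%, 4.51% and 0.868% were higher and 8.53%, 13.7%, 1.43% and 0.651% lower. At E9.0 Gbx2, a homeobox gene of the otic vesicle and the mid-hindbrain border, was higher by 2.45, and Cyp26b1, a retinoic acid degrading enzyme, by 2.43. Cyp26c1 (-2.30), another such enzyme, and the retinoic acid receptor gene Rarg (-1.26) were lower. Between the labels in PA2, 1, 0, 0 and 1 of the 19 were higher and 1, 2, 0 and 1 lower. In either direction 14%, 4.48%, 0.0814% and 10.3% of all genes were called. At E10.5 the called genes of the list were Ezh2 (0.27), the Polycomb methyltransferase gene, and Cyp26b1 (-1.01, adjusted p 0.0164).

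Of 18 genes reported as downstream of Hoxa2, all were tested. Between the labels in PA2, 0, 0, 0 and 4 were higher and 2, 4, 2 and 4 lower at the 4 stages, with medians of -0.20, -0.01, 0.12 and 0.17 against 0.01, 0.01, 0.00 and 0.00 over all genes. In either direction 14%, 4.48%, 0.0814% and 10.3% of all genes were called. The list includes Meis1 and Meis2, which are also counted above. It also holds all of the PA1 identity markers summed above (Pitx1, Lhx6, Lhx8, Barx1 and Nkx3-2), so the 2 results share genes. At E10.0 the called genes were Meis2 and Zfp703, a zinc finger gene, which was lower by 0.80 (log2 difference -0.80, SE 0.16, adjusted p 0.00985), at 18.5 to 30.6 CPM in wildtype and at most 15.5 CPM under the label. At E10.5 Pitx1, a PA1 homeobox gene, stood at 0.259 to 1.00 CPM in wildtype PA2 and 4.80 to 7.86 CPM under the label, higher by 2.15 (SE 0.36, adjusted p 3.54e-05). That level was under the 41.0 to 61.1 CPM of Pitx1 in wildtype PA1. Lhx6 (1.46) and Alx4 (1.05) were also higher and the Wnt receptor gene Fzd4 (-1.02) lower at E10.5. In the same libraries Hoxa2 stood at 116 to 147 CPM.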

How the data were processed

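The authors deposited 1 table of CPM-like values, recorded here as a signal because column totals vary around those of true CPM, for 21948 genes and 68 libraries. Per the submitters' processing notes, bcl2fastq 2.18, TopHat2 2.1.1, R 3.3.2 and the build mm10 were used. The counting program and strand setting are not given in the sources used here. In the deposited signal 100% of values were whole reads (tolerance 0.01 reads), and these reads were recovered, with 8912251 to 20619153 per library. The tests had been planned for CPM and were not altered.

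Genes with at least 1 CPM in at least 3 libraries were kept (18428, with 6 of the 7 members). limma 3.58.1 in R 4.3.3 was fitted to log2(CPM + 1) with 1 mean per group, a trended prior variance and two-sided tests with Benjamini-Hochberg adjustment over the kept genes. Adjusted p-values without another name come from this limma fit. Single values and correlations were tested by permutation (scipy 1.17.1, 100000 permutations within groups for correlations). edgeR 4.0.16 (quasi-likelihood) on the recovered reads was an alternative, as were pseudocounts of 0.25 and 5, dropping the filter or raising it to 5 CPM, scaling by median of ratios, fits of the compared groups alone, a replicate block, libraries high in red cell or yolk sac genes left out, and each library left out in turn. The tests were checked on simulated data.

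Same-numbered PA1 and PA2 libraries come from 1 embryo, per the series text. Their deviations from group means correlated at a median of 0.347 over 33 pairs (30 above 0.1), against -0.124 over 116 pairs of other numbers. No 2 libraries of a group agreed within sampling noise (chi-square per degree of freedom 5.84 to 95.9 over 116 pairs).

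The members and lists were chosen with earlier results of these data known. Named are the 7 members, the 5 genes most like Hoxa2 or Hoxb2 and, from each list, up to 4 called genes with the largest absolute difference in the contrast described. Some genes that this rule names are not reported here. Symbols and coordinates came from GENCODE M21, and promoter windows from RefSeq.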

Additional observations from a re-analysis of the deposited data

Results flagged for a closer look

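Of 61 groups of 4 or 5 libraries in which a member reached more than 3 reads, 7 held a library apart from the others by Dixon's criterion, which about 1 group in 20 meets by chance. In PA2, Hoxa2 in wildtype E9.0 replicate 4 stood at 20.2 CPM, under 3 libraries at 22.9 to 23.1. Hoxa2 under the label Hoxa2-/- at E9.5 stood at 102 CPM in replicate 4, against 48.6 to 53.5 in the other 4, and that library also had PA1 identity markers of 243 CPM against 21.6 to 52.7 and heart muscle markers of 10.8 CPM against 43.2 to 615. In PA1 such libraries were high by a few reads: Hoxa2 under the label at E9.0 in replicate 3 (0.398 CPM, 4 reads), Hoxa3 under the label at E9.5 in replicate 5 (0.611 CPM, 9 reads) and Hoxb2 in wildtype at E10.0 in replicate 3 (0.480 CPM, 6 reads). Hoxb1 in wildtype PA1 at E9.0 stood at 1.31 CPM (19 reads) in replicate 4, whose caudal Hox markers summed to 4.07 CPM. Hoxb2 in PA1 under the label at E9.5 stood at 1.69 CPM (24 reads) in replicate 3, whose caudal Hox markers summed to 5.9 CPM. The part of these markers in the member values was not tested.

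The change of Hoxb3os from E9.0 to E10.5 in PA2 differed between the labels by -0.92 on the log2 scale (limma, adjusted p 0.011), with a fall in each group. This call was lost with edgeR (adjusted p 0.0942), in a fit of the compared groups alone (0.236) and without replicate 2 of the label at E10.5 (0.0632). The wildtype fall also lost its call with edgeR (adjusted p 0.126). At these stages the library division and the label cannot be told apart.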

How the results depend on the processing

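Of 87 single-gene results, 58 kept direction and call under each alternative run. With the filter of 5 CPM fewer members were tested, and calls numbered 14 (wildtype arches), 13 (labelled arches), 3 (label in PA2) and 0 (label by stage), against 22, 20, 5 and 1. Label calls in PA2 numbered 3 with a pseudocount of 0.25, 8 with 5 and 3 with edgeR. Interaction calls of arch and label (0) became 2 with a pseudocount of 5, which flattens the low PA1 values. They became 1 with the embryo as a replicate block and 0 to 1 without single libraries. Stage calls (24) became 14 in the fit of the compared groups alone. The label-by-stage count became 2 with a pseudocount of 5 or a replicate block (number within stage), 0 with the compared groups alone or edgeR and 0 to 1 without single libraries. Numbers are not shared embryos across labels or stages, so that block is no pairing, and the embryo block changed no other call.

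For Hoxa2 in PA2, label against wildtype, the difference at E9.0 was 0.17 to 0.53 without single libraries. At E9.5 it was 0.48 with a pseudocount of 5 (adjusted p 0.0131). At E10.0 it was 1.03 with 0.25. At E10.5 it was 1.08 relative to arch mesenchyme genes, where 3 against 3 cannot pass. Its label-by-stage difference was 0.85 with a pseudocount of 5 (adjusted p 0.0159) and 0.93 with the replicate block (0.0305). By edgeR the arch-by-label difference turned to -0.10 for Hoxa2 at E10.0 and 0.23 for Hoxb3os at E10.5. Mean PA1 CPM in wildtype and under the label was 0.162 and 0.378 for Hoxa2 at E10.0. For Hoxb3os at E10.5 it was 0.106 and 0.0218. The part of these low PA1 values in the turned signs was not tested.

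The Hoxaas2 to Hoxa2 log2 ratio at E9.0 was 0.038 with a pseudocount of 0.25, and without single libraries -0.16 to 0.13 at E9.0, -0.18 to 0.067 at E9.5 and -0.58 to -0.40 at E10.0, where each lost the call (adjusted p 0.0635) because 4 against 5 cannot pass. Correlations with Hoxa2 not centred on group means were 0.38 (Hoxa3), -0.75 (Hoxb1), -0.61 (Hoxb2), -0.73 (Hoxb3) and -0.86 (Hoxb3os), which mix stage and label. Without the 2 farthest libraries they were 0.36 for Hoxaas2 and 0.089 for Hoxb3.

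Depth limits the PA1 values, Hoxb3 and late Hoxb1, which rest on 0 to 24 reads per library.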
